A study of Jatropha curcas with 15 samples.

Results

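Oleosin 2 and SSI2 are a pair of lipid genes of *Jatropha curcas* (physic nut, an oilseed shrub), each followed here through 1 array probe, CUST_21228 for oleosin 2 and CUST_33425 for SSI2, out of the 41651 probes on the array. Both were picked by probe name and gene name with their time courses already known, so their levels are a description and carry no test. Inflorescence buds of field-grown *J. curcas* plants aged 1 year were sprayed with the synthetic cytokinin 6-benzylaminopurine (BA, also called 6-benzyladenine) at 1 mM and were collected 0, 3, 12, 24 and 48 h later. Each time point had 3 biological replicates, with 1 Cy3-labelled array for each. The first collection is given as 0 h after the treatment, and no buds without BA from the later times are in the samples used here, so the effect of BA and the passing of time cannot be told apart. In whole buds, more transcript per cell and more cells of a type that holds the transcript cannot be told apart either.

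Oleosins are the structural proteins of oil bodies, the droplets in which plant cells store triacylglycerol, and they keep the droplets from fusing. They are best known from maturing seeds, where they accumulate together with storage proteins and late embryogenesis abundant (LEA) proteins, and related oleosins occur in the pollen and the tapetum of flowers. SSI2, also called FAB2, is known from Arabidopsis as a stearoyl-acyl carrier protein (ACP) desaturase of the plastid, the enzyme that places the first double bond in a newly made fatty acid and so supplies oleic acid for membrane and storage lipids, and loss of the gene in Arabidopsis alters salicylic acid and jasmonic acid signalling.

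The study's tables name 10 probes as oleosin 2, and the 9 besides CUST_21228 have a sequence in the tables used here. These sequences are shown because they tell which of the probes are independent readings of the transcript and which read the same stretch. The study's quantitative PCR primers for the oleosin 2 transcript, whose array probe is CUST_21228, were these.
oleosin 2 forward primer: cggttcttgttcctgcggttatca
oleosin 2 reverse primer: gctctgtccttcatctctcttgcc
Neither primer shared a run of more than 7 bases with any of the 9 probes, on either strand. Among the 9 probes, CUST_20748 shared no run of 13 bases with another one and so read a stretch of its own.
CUST_20748: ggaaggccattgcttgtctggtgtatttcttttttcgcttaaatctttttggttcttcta
A group of 3 probes overlapped in a chain, and the capitals mark the run of 21 bases with which CUST_20525 ends and CUST_21323 begins. The remaining probe of that group, CUST_23009, shared 58 of its 60 bases with CUST_20525.
CUST_20525: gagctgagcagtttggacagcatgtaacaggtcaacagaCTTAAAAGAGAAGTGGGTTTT
CUST_21323: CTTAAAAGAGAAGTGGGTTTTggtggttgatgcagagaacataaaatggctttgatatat
The other 5 probes formed a second chain, of which 4 are given, with capitals for the 31 bases that CUST_26853 shared with CUST_22577 and the 38 bases that CUST_25146 shared with it, and in CUST_26944 for its only base that differed from CUST_22577 over 59 aligned bases.
CUST_26853: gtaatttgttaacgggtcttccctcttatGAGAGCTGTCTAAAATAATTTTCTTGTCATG
CUST_22577: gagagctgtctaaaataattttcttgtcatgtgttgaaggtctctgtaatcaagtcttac
CUST_25146: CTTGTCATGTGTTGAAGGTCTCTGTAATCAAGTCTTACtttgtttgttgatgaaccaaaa
CUST_26944: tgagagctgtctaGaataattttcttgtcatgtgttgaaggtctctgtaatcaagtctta
That difference was A13G, counted from the first base of CUST_22577. The fifth probe of the chain, CUST_20585, differed from CUST_26853 by A28T and T54C, counted from the first base of CUST_26853, over 57 aligned bases. A probe that the study's table calls a hypothetical protein, CUST_23970, had the same 60 bases as CUST_22577. The 9 probes thus read 3 separate stretches of sequence.

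The oleosin 2 signal was not well above background before and 3 h after BA and was clear from 12 h on. As scanned, the spot of CUST_21228 had median intensities of 62, 61 and 54.5 units at 0 h over local backgrounds of 50, 53 and 44.5 units, and the 3-h arrays gave 61, 57 and 52.5 units over 46, 50 and 48 units. The spot then read 631, 132 and 314 units in the 12-h buds, 378, 453 and 658 units in the 24-h buds, and 222, 224.5 and 290 units in the 48-h buds, while the local background on these arrays lay between 35 and 48 units. The scanner software called the probe well above background on none of the 6 arrays at 0 and 3 h. A signal of this kind is called within background here, although these spots read slightly more than their local background. On all 9 arrays from 12 h on the probe was called well above background, and no array of the later times overlapped with the earlier ones.

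**Figure D1:**
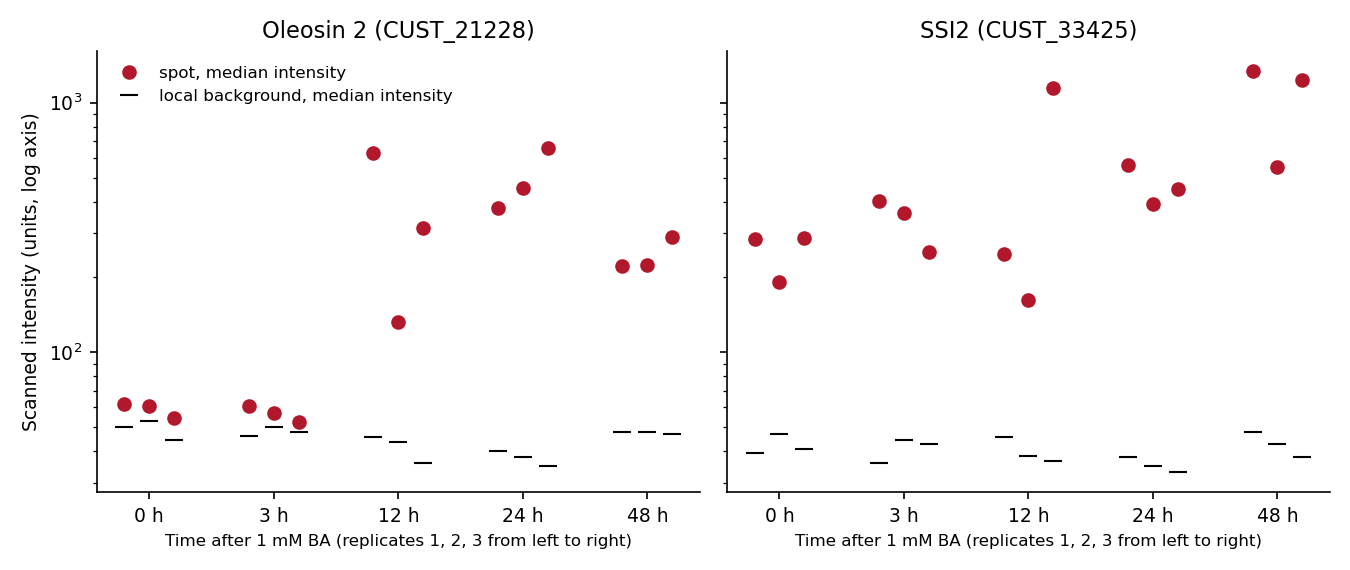
Median spot intensity (red points) and median local background (black dashes) of CUST_21228 (left) and CUST_33425 (right) on each of the 15 arrays, in scanner units on a log axis, by time after BA. The oleosin 2 spot lies next to its background on all 6 arrays at 0 and 3 h and between 132 and 658 units on the 9 later arrays, whereas the SSI2 spot lies above its background on all 15 arrays.

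After scaling, that is, as log2 processed intensity minus the 75th percentile of the array, the levels of CUST_21228 were -9.01, -9.29 and -9.46 at 0 h and -9.02, -9.77 and -10.00 in the 3-h buds. They were -3.33, -6.19 and -4.72 in the 12-h buds, -4.16, -3.73 and -3.33 in the 24-h buds, and -5.13, -5.34 and -4.73 in the 48-h buds. The 24-h buds were thus the highest as a group, with a mean level of -3.74 ± 0.42, followed by the 12-h buds with -4.74 ± 1.43 and the 48-h buds with -5.07 ± 0.31 (SD, n = 3 each), and both early time points lay far below, with -9.26 ± 0.23 at 0 h and -9.59 ± 0.51 at 3 h. The arrays of 24 h and 48 h did not overlap, whereas those of 12 h spanned a 7.26-fold range that overlapped with both. Against the lowest signal that still counted as well above background on each 0 h array, and so as a lower bound, oleosin 2 was higher at 12 h by at least 7.71-fold, in the 24-h buds by at least 15.4-fold, and in the 48-h buds by at least 6.16-fold. The 12 h bound was 4.72-fold without 12 h replicate 1 and 12.7-fold without 12 h replicate 2, while leaving out single arrays moved the 24 h bound between 13.4- and 18.8-fold and the 48 h bound between 5.48- and 7.51-fold. The differences of the measured levels from 0 h, which have no firm lower end because the 0 h signal was within background, were 4.51 ± 0.53 (12 h), 5.51 ± 0.53 (24 h) and 4.19 ± 0.53 (48 h) on the log2 scale (SE). Between the later times, the level was 1.00 ± 0.53 higher in the 24-h than in the 12-h buds and 1.32 ± 0.53 lower in the 48-h than in the 24-h buds. No fold is given at 3 h, where neither time point was well above background. How the background is corrected sets the size of these differences: with the spot minus its local background plus 50 units, a setting added after seeing the data, they were 2.12, 2.87 and 1.73, and normexp correction, whose fit stood apart on 0 h replicate 3 and 24 h replicate 1, gave 0.55, 1.56 and 0.19.

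The 9 other oleosin 2 probes followed the same course. Each of them was within background on all 6 arrays at 0 and 3 h, and 7 of them were well above background on all 9 later arrays. The exceptions were CUST_22577 and CUST_26944, which were not well above background on 12 h replicate 2, the array on which CUST_21228 was also lowest among the later ones. In limma's test with Benjamini-Hochberg adjustment, 9 of the 9 were called higher at 12 h, at 24 h and at 48 h, where a call needs an adjusted p of at most 0.05 and a change of at least 2-fold. Over all 34470 probes tested, 3.50%, 2.18% and 1.88% were called higher at 12, 24 and 48 h. At 3 h limma called none of the 9, none had an unadjusted p below 0.05, and none was called under any alternative setting, against 1.69% of all tested probes called higher and 0.896% called lower, 2.59% in all. The study put these 9 probes on its list because they changed in these same samples, and they carry the same gene name as CUST_21228, so their calls are not independent evidence of the rise. They also entered the test only through the later time points, at which they were well above background, so a probe of this kind had to differ from 0 h and nothing is read from their share. Their median log2 difference at 12, 24 and 48 h was 3.56, 4.65 and 3.17, beside 0.02, 0.01 and 0.02 over all tested probes, and as bounds against background the medians were at least 4.76-fold, 9.74-fold and 3.11-fold.

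The size of the change differed among the probes, but their order is not settled, because each 0 h signal lay within background. For the bounds, a probe's own level replaced the lowest well-above-background signal of a 0 h array where it was the higher of the pair. As bounds at 12, 24 and 48 h, CUST_20585 was at least 8.27-, 17.6- and 6.30-fold higher, CUST_26853 at least 7.61-, 15.6- and 5.12-fold, and CUST_26944 at least 2.78-, 5.90- and 1.88-fold. CUST_21323 was at least 3.49-, 4.91- and 2.59-fold higher, and CUST_20525, which shares 21 bases with it, at least 4.76-, 9.74- and 3.01-fold. On the measured scale, with its open lower end, CUST_26944, which differs from CUST_22577 by a single base, had log2 differences of 3.31, 4.39 and 2.74 against 3.28, 4.31 and 2.81 at 12, 24 and 48 h, a gap far below the SE of 0.53 to 0.59. CUST_23970, the probe called a hypothetical protein, gave 3.53, 4.64 and 3.12 against 3.28, 4.31 and 2.81 for CUST_22577, whose 60 bases it repeats. Thus the gap between spots of identical sequence was 0.24 to 0.33.

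The spread among the 12 h buds was shared by all 10 probes. Replicate 1 was highest, replicate 3 in the middle and replicate 2 lowest for each of them, with a range from the highest to the lowest array of 2.09 log2 units for CUST_21323 to 3.21 for CUST_26944. The SD of CUST_21228 at 12 h, 1.43, was larger than that of 99.5% of the tested probes, whose median SD was 0.16, and at 24 and 48 h its SDs of 0.42 and 0.31 exceeded those of 92.1% and 88.3% of them. The 10 spots read the same RNA samples, so this spread was not that of a single spot.

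**Figure D2:**
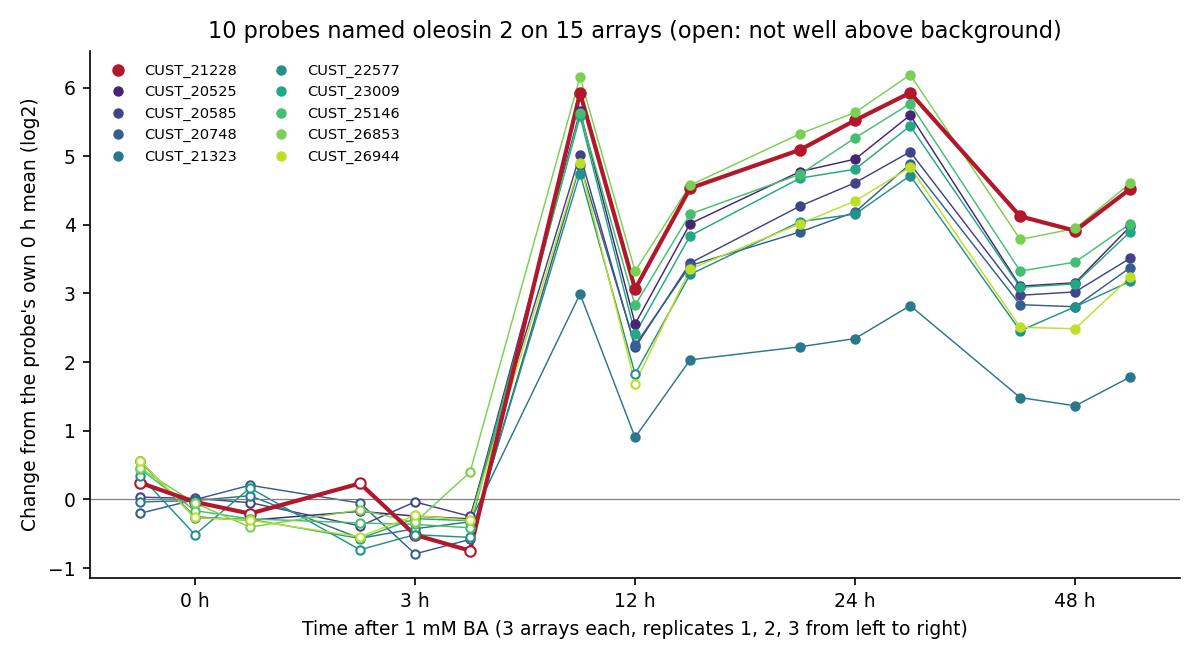
Change of the 10 oleosin 2 probes from each probe's own mean at 0 h (log2), on each of the 15 arrays, with CUST_21228 in red, filled points for arrays well above background and open points for the others, and lines that join the arrays of a probe and carry no order among replicates. All 10 probes are high on the arrays from 12 h on, have the same order of the 3 arrays at 12 h, and differ in height, with CUST_21323 lowest on every later array in this change from a 0 h signal within background.

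The arrays lay on 4 slides, and each slide held arrays of at most a pair of time points. Slide 2 held 3 h replicates 2 and 3 and 12 h replicates 1 and 2, and within it CUST_21228 averaged -4.76 at 12 h and -9.88 at 3 h, a difference of 5.13, and the 9 other probes differed by 2.32 to 4.71. Slide 3 held 12 h replicate 3 and the 24 h arrays, and within it the 24 h mean lay 0.97 above the 12 h array. On slide 1, 3 h replicate 1 lay 0.24 above the 0 h mean, with both within background. The step between 3 and 12 h was thus as large within a slide as over all arrays, whereas slide 4 held the 48 h arrays alone, so that 48 h and its slide cannot be told apart. With scan day as a fixed block, where 3 h replicate 1 alone links 0 h to the later times, limma called 5, 3 and 0 of the 9 other probes at 12, 24 and 48 h, and with slide as a fixed block 4 and 0 at 12 and 24 h, with no value at 48 h. The share of all tested probes called under these blocks is not given here, so nothing is read from these counts. The differences of CUST_21228 under the blocks were not smaller, at 5.38, 6.38 and 5.05 with scan day and 5.36 and 6.34 with slide.

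The detection pattern of CUST_21228 was also counted over the whole array. The pattern was taken from this probe's own values, so the count is a description and no support for its rise. Probes of a like course that were dim on a later array fall outside it, among them CUST_22577, CUST_26944 and CUST_26088. Of the 41651 probes, 35 were within background on all 6 arrays at 0 and 3 h and well above it on all 9 later arrays, and 8 of the 35 were oleosin 2 probes, CUST_21228 included. None showed the reverse course. Ranked by Pearson correlation with CUST_21228 over the 15 arrays, 54 of 34304 probes had an r above 0.95, among them all 9 other oleosin 2 probes (0.978 to 0.995). The top 10 held 5 oleosin 2 probes, led by CUST_25146 (0.995) and CUST_20748 (0.994), and 5 probes not named in the tables used here, namely CUST_22701 (0.994), CUST_26088 (0.993), CUST_22725 (0.992), CUST_23902 (0.990) and CUST_23542 (0.990). CUST_22701 and CUST_22725, too, were within background on all 6 early arrays. As bounds, CUST_22701 was at least 7.71-, 15.4- and 5.34-fold higher than at 0 h at 12, 24 and 48 h, and CUST_22725 at least 5.32-, 10.8- and 4.31-fold. CUST_23542 differed from the other 4 in that it was already well above background on 5 of the 6 early arrays, and it lay 2.82, 3.58 and 2.38 log2 units above its 0 h mean. These correlations are a description over arrays that share time points and slides.

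No other seed maturation probe of the list used here shared the course of oleosin 2. The list held 5 probes from the study's list of changed probes, which was made from these samples. Some of the probes most like CUST_21228 have no name here, so whether other seed maturation genes shared its course is not known. Oleosin 1 (CUST_20598), another oil body coat protein, had levels of -4.82, -4.59 and -4.82 at 0 h, -5.06, -5.21 and -4.58 in the 12-h buds and -5.19, -5.55 and -5.52 in the 24-h buds, so that its 24 h arrays lay below those of 0 h and its 12 h arrays overlapped with them. Its differences were -0.78 ± 0.16 at 3 h (limma, adjusted p = 0.00912), -0.21 ± 0.16 at 12 h (adjusted p = 0.353), -0.68 ± 0.16 at 24 h (adjusted p = 0.0187) and -0.60 ± 0.16 at 48 h (adjusted p = 0.0326), none of them 2-fold. The legumin B precursor (CUST_22768), a seed storage protein, was the only probe of the list that was called, with levels of -4.03, -4.17 and -4.40 at 0 h, -2.13, -3.23 and -3.03 in the 3-h buds and -3.04, -2.68 and -2.39 in the 48-h buds. It rose 2.65-fold at 3 h and 2.83-fold at 48 h (log2 differences 1.40 ± 0.27 and 1.50 ± 0.27, limma, adjusted p = 0.00641 and 0.00669) and lay within 0.21 of 0 h on the log2 scale at 12 and 24 h, where oleosin 2 was highest.

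The LEA protein CUST_20906, of a family that protects drying cells, fell by 0.85 ± 0.16 at 12 h and by 0.78 ± 0.16 at 24 h (limma, adjusted p = 0.00159 and 0.0112), less than 2-fold, and had a difference of 0.18 ± 0.16 at 48 h. The dehydrin Xero (CUST_22728), which is likewise linked to water loss, was 0.68 ± 0.16 higher at 48 h (adjusted p = 0.0182) and passed the test at no other time. LEA protein D-7 (CUST_21582) was dim, within background on all 3 arrays at 24 h, and passed the test at no time point. In all, 1 of the 5 probes was called at 3 h and 1 at 48 h, both higher, against 1.69% and 1.88% of all tested probes called higher. None was called at 12 and 24 h under any setting, where 1 and 2 of the 5 had an unadjusted p below 0.05 in limma. The median difference of the list was -0.55, -0.28, -0.68 and 0.68 at 3, 12, 24 and 48 h.

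**Figure D3:**
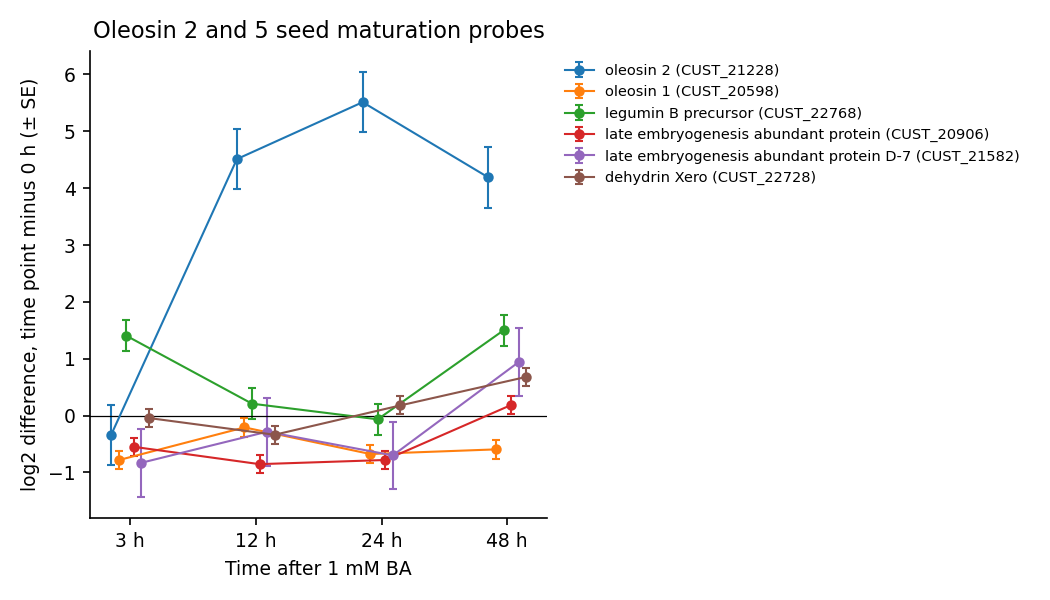
Log2 difference of each time point from 0 h (± SE of the fit, 3 arrays per time point) for oleosin 2 (CUST_21228) and the 5 seed maturation probes. Oleosin 2 lies between 4.19 and 5.51 at 12 to 48 h, measured against a 0 h signal within background, while the 5 other probes stay between -0.85 and 1.50 at every time point.

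SSI2 (CUST_33425) was measured above background on all 15 arrays and was highest at 48 h. Its levels were -4.36, -5.26 and -4.25 at 0 h, -3.87, -4.28 and -4.76 in the 3-h buds, and -4.80, -5.44 and -2.57 in the 12-h buds. The 24-h buds had -3.46, -3.99 and -3.89 and the 48-h buds -2.33, -3.55 and -2.28. The order of the means was the order of time, with -4.62 ± 0.55 (0 h), -4.30 ± 0.45 (3 h), -4.27 ± 1.51 (12 h), -3.78 ± 0.28 (24 h) and -2.72 ± 0.72 (48 h; SD, n = 3 each). Each time point overlapped with its neighbours in this order, and 24 h and 48 h were the time points whose arrays all lay above those of 0 h. The differences from 0 h were 0.32, 0.35, 0.84 and 1.90 on the log2 scale for 3, 12, 24 and 48 h, each with an SE of 0.60, and the last was a 3.74-fold change.

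The 12 h mean of SSI2 rested on 1 array. Replicate 3 had 1146 units at the spot, against 248 and 162.5 units for replicates 1 and 2, and without it the 12 h difference was -0.50 in place of 0.35. On the same array all 7 floral organ identity probes used as markers of the tissue (APETALA 1 and 3, AGAMOUS, SEPALLATA 1 to 3 and SEEDSTICK) had their lowest level of the 3 arrays at 12 h, and their mean level was -3.35 there, against -1.98 and -1.97 on the other 12 h arrays and -1.11 to -0.93 at 0 h. The study also lists APETALA 2 and PISTILLATA, which are not among the 7 and which it reports as near their 0 h level at 12 h. The lower level is thus that of the markers used and not of all such genes. All 7 markers were well above background on every array, so the markers of the labelled tissue were present, and limma called 5 of them lower at 12 h, against 5.54% of all tested probes called lower. With scan day as a fixed block all 5 calls were lost (limma, adjusted p = 0.0662 to 0.446). With slide as a fixed block all but that of SEPALLATA 2 were lost (adjusted p = 0.129 to 0.634). With only the 6 arrays compared, those of SEPALLATA 3 and SEEDSTICK were lost (adjusted p = 0.0650 and 0.0587). Replicate 3 also was the only 12 h array on slide 3, and it correlated with the other 12 h arrays over all tested probes at 0.988 to 0.989, while replicates 1 and 2 correlated with each other at 0.991 and arrays of any other time point at 0.992 or above. The part of these differences in the level of SSI2 was not tested.

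Slide bears on the SSI2 values too. Within slide 2 the 12 h arrays averaged 0.60 below those of 3 h, and within slide 3 the 24 h arrays averaged 1.21 below 12 h replicate 3, whereas on slide 1 the 3 h array lay 0.76 above the 0 h mean. With slide as a fixed block the 24 h difference from 0 h turned to -1.06, and 48 h has no value in that fit because its arrays fill slide 4. The 48 h difference kept its direction in all 14 of the other alternatives that gave it a value, but was 0.93 with normexp correction, and leaving out single arrays moved it between 1.59 and 2.32.

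A second probe that the study's hormone gene table assigns to SSI2, CUST_38273, varied little. It read 34687.9 to 39764.7 units at 48 h, against 31347.8 to 33927.5 units at 0 h, and no spot was saturated. Its scaled levels were 2.88, 2.85 and 2.91 at 0 h, 2.80, 2.94 and 3.05 in the 3-h buds, and 2.64, 2.73 and 2.93 in the 12-h buds. The 24-h buds had 2.82, 2.71 and 2.94 and the 48-h buds 2.79, 2.79 and 2.75. The whole range over the 15 arrays was smaller than the SD of CUST_33425 at 0 h, and the 48 h arrays were the only group that did not overlap with 0 h. In limma's test its differences from 0 h were 0.05, -0.11, -0.06 and -0.11 for 3, 12, 24 and 48 h, each with an SE of 0.09 (adjusted p = 0.781, 0.369, 0.713 and 0.466), and it was called at no time point under any of the alternatives. CUST_33425, read by 1 spot per array, thus varied widely between arrays while CUST_38273 did not. The difference between the changes of the 2 probes was not tested. The tables used here give no sequence for either probe, so whether they read the same transcript was not examined.

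**Figure D4:**
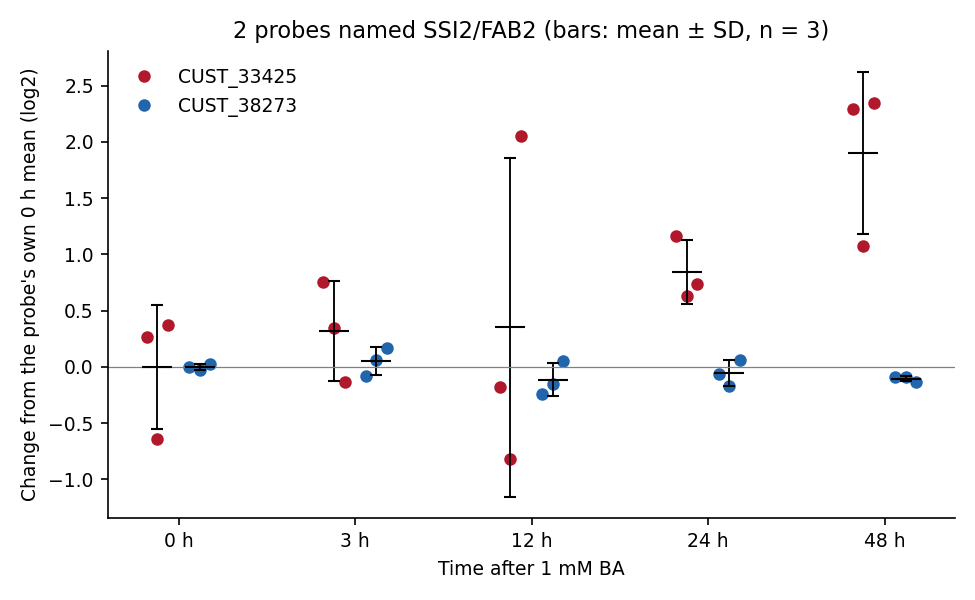
Change of the SSI2 probes CUST_33425 (red) and CUST_38273 (blue) from each probe's own mean at 0 h (log2) on each array, by time after BA, with the mean and SD of the 3 arrays in black. CUST_33425 spreads widely at 12 h, where 1 array lies far above the other 2, and has its highest mean, 1.90, at 48 h, while CUST_38273 stays close to 0 on every array, with levels of 2.64 to 3.05.

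No probe tracked CUST_33425 as closely as the other oleosin 2 probes tracked CUST_21228. Over the 15 arrays the highest r among 34304 probes was 0.887, for CUST_41038, followed by CUST_12485 (0.884), CUST_17300 (0.880) and CUST_3723 (0.878), and none exceeded 0.95. The top 10 are not named in the tables used here. Of the 4 given, CUST_3723 had the largest difference at 48 h, 3.14 above its 0 h mean, beside 0.44 for CUST_41038, 1.15 for CUST_12485 and 1.00 for CUST_17300. The ranking depended on 12 h replicate 3, since 4 of the top 10 stayed among the top 10 without that array, and the highest r was then 0.943. The second SSI2 probe had an r of -0.03 with CUST_33425, and oleosin 2 an r of 0.43.

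Around these members, lipid metabolism probes were called at a share near that of all tested probes over the 4 later time points. The lists held 31 probes in 3 groups, taken from the study's list of changed probes and its hormone gene table, and so chosen in part because they changed in these samples. At 12 h, limma called 1 of the 31 higher and 3 lower, against 3.50% and 5.54% of all tested probes, 9.04% in all. At 3 h it called 1 of 31, higher, against 1.69% of all tested probes. It called none at 24 h (0.998% of all tested probes called lower and 3.18% in all) and none at 48 h (0.818% called lower and 2.70% in all), nor did any alternative, although 14 and 10 of the 31 had an unadjusted p below 0.05. Without the 2-fold limit, 6, 17, 7 and 4 of the 31 had an adjusted p of at most 0.05 at 3, 12, 24 and 48 h, against 12.1%, 34.3%, 14.5% and 13.8% of all tested probes. Over the 4 later time points together, 5 of the 31 (16.1%) were called at least once, against 12.97% of all tested probes. Without 12 h replicate 3, 2 of the 31 were called at 12 h. The median difference of the 31 was 0.07, 0.02, -0.08 and -0.11 at 3, 12, 24 and 48 h, beside -0.04, 0.02, 0.01 and 0.02 over all tested probes.

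Fatty acid synthesis and desaturation, the pathway in which SSI2 acts, held 3 of the 4 calls at 12 h, all lower, among its 8 probes. Over all tested probes 5.54% were called lower at 12 h. The 8 probes were likewise chosen in part because they changed in these samples, so nothing is read from their share. At 24 and 48 h none of the 8 was called, against 3.18% and 2.70% of all tested probes. The chloroplast omega-6 fatty acid desaturase (CUST_11310), which adds a second double bond to oleic acid in plastid lipids, had levels of -2.85, -3.0 and -2.93 at 12 h, against -1.58, -1.58 and -1.73 at 0 h, and fell by 1.30 ± 0.11 on the log2 scale (limma, adjusted p = 2.01e-06). The oleoyl-ACP thioesterase (CUST_30045), which releases the oleic acid that a stearoyl-ACP desaturase makes, had -0.12, -0.07 and -0.18 at 12 h, against 1.08, 1.02 and 1.03 at 0 h, and fell by 1.16 ± 0.10 (adjusted p = 2.84e-06). In both, all 3 arrays of 12 h lay below all arrays of every other time point, and at 48 h the differences were 0.08 ± 0.11 and -0.25 ± 0.10, neither past the test (adjusted p = 0.642 and 0.118).

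The homomeric acetyl-CoA carboxylase ACC1 (CUST_32112), which makes the malonyl-CoA used to lengthen fatty acids in the cytosol, had 1.59, 1.23 and 1.09 at 12 h, against 2.67, 2.31 and 2.05 at 0 h, and fell by 1.04 ± 0.22 (adjusted p = 0.00317). With a fixed block for slide the ACC1 difference was -0.65 and with one for scan day -0.76, and neither was called. FAD3, the omega-3 desaturase that makes linolenic acid, was read by 4 probes, all with positive differences at 3 h (0.34 to 1.64), and the differences between probes were not tested. CUST_38272 was 1.64 ± 0.50 higher at 3 h, at an adjusted p of 0.0492 that stayed below 0.05 in 9 of 30 alternatives (0.0137 to 0.181), CUST_38284 was 0.66 ± 0.13 higher at 12 h and 0.52 ± 0.13 lower at 48 h (adjusted p = 0.00159 and 0.0222), and CUST_38285 and CUST_13535 passed the test at no time point.

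**Figure D5:**
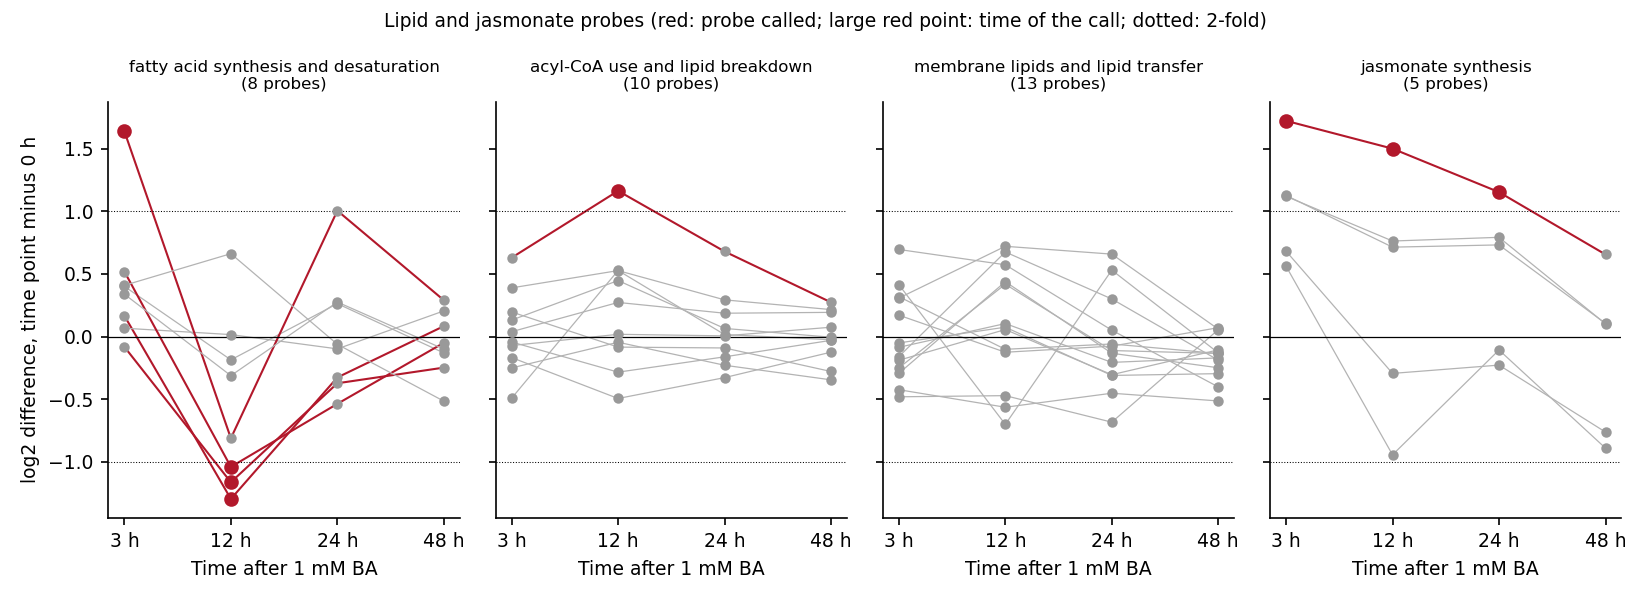
Log2 difference of each time point from 0 h for the probes of the 3 lipid lists and the jasmonate list, with probes called at 1 or more time points in red, large red points at the time of the call and dotted lines at 2-fold. The 3 lower calls at 12 h all lie in fatty acid synthesis and desaturation, between -1.30 and -1.04, and no probe of the membrane lipid list passes 2-fold.

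Of the 10 probes for acyl-CoA use and lipid breakdown, 1 was called at any time point, a share near the 12.97% of all tested probes. It was AIM1 (CUST_31426), an enzyme of peroxisomal beta-oxidation that takes part in jasmonic acid synthesis. It had levels of -3.13, -3.30 and -2.54 at 12 h, against -3.64, -4.39 and -4.45 at 0 h, and rose by 1.16 ± 0.29 (adjusted p = 0.00806). The call was lost with normexp correction (0.42, adjusted p = 0.430) and with slide as a fixed block (1.60, adjusted p = 0.0575). The other AIM1 probes had differences of 0.27 ± 0.14 and 0.02 ± 0.14 at 12 h and passed the test at no time point. None of the 13 membrane lipid and lipid transfer probes was called at any time point, against 12.97% of all tested probes. At 12 h 8 of the 13 had an unadjusted p below 0.05 and 7 an adjusted p of at most 0.05, against 44.3% and 34.3% of all tested probes. The nonspecific lipid-transfer protein (CUST_37825), a carrier of lipids between membranes, was the highest of these at 0.72 ± 0.12 (adjusted p = 0.000591), and the acyltransferase CUST_7346 the lowest at -0.70 ± 0.18 (adjusted p = 0.0102).

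Jasmonate synthesis starts from linolenic acid, the end product of the desaturases. Of its 5 probes, OPR3 (CUST_5083), a reductase late in the pathway, was called at 3 h, 12 h and 24 h, where it rose by 1.72, 1.50 and 1.15 on the log2 scale, each ± 0.31 (limma, adjusted p = 0.00434, 0.00261 and 0.0287), against 2.59%, 9.04% and 3.18% of all tested probes called. The 24 h call was lost in 7 of 30 alternatives (adjusted p of 0.00848 to 0.189 over all of them), with adjusted p values of 0.121 without 0 h replicate 2, 0.0594 without 24 h replicate 1 and 0.0996 without 24 h replicate 2. Its levels were 0.03, -1.04 and -0.66 at 3 h, against -2.01, -2.76 and -2.08 at 0 h, with no overlap. Both probes of AOS, which acts before it, lay 1.13 ± 0.38 and 1.12 ± 0.37 above 0 h at 3 h without passing the test (adjusted p = 0.0735 and 0.0667), and neither LOX2 probe passed it at any time point. The mean of OPR3 was thus highest at 3 h, whereas that of SSI2 (CUST_33425) was highest at 48 h.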

How the data were processed

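Buds of 5 time points were measured on 15 arrays. The authors deposited the spot intensities of each array, background-subtracted and detrended by Agilent Feature Extraction 10.7.3.1 and not scaled between arrays, with scanned spot and background intensities. They also deposited 1 log2 table, 99.98% of whose values lay within 0.1 of quantile-normalized intensities. It served as an alternative.

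Control and outlier-marked spots were removed, log2 processed intensities were averaged per probe, and the 75th percentile of each array (12.31 to 12.85) was subtracted. Between 79.0% and 84.0% of probes were well above background per array. No spot was saturated, and the number of arrays limits the precision. A probe was tested if some time point had it well above background on each of its 3 arrays, which 34470 did, with limma 3.58.1 (R 4.3.3), with time as the only factor and Benjamini-Hochberg adjustment. On simulated data, 93.0%, 97.5%, 93.0% and 95.0% of 200 probes changed by 2 log2 units among 34305 were recovered at 3, 12, 24 and 48 h. Recovery here means an adjusted p of at most 0.05, without the 2-fold limit. The recovery of smaller changes is not given here.

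The members and lists were chosen with earlier results of these data known. Named are the members, the list probes and, for each member, the 10 most correlated probes. Gene names and sequences come from the study's tables. CUST_23970 was added after its values were seen. Neither member's own probe sequence was used here. Same-numbered arrays were not treated as pairs in the main fit. Their deviations from the time point mean correlated between -0.27 and 0.38 (median 0.06). For arrays with different numbers the range was -0.34 to 0.42 (median 0.01), and these ranges cannot exclude a pairing.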

Additional observations from a re-analysis of the deposited data

Results flagged for a closer look

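In 3 lipid probes, changes of opposite direction passed the test at different time points, and the direct comparison of those time points passed as well. None of the single changes was 2-fold. The FAD3 probe CUST_38284 had log2 differences from 0 h of -0.52 at 48 h and 0.66 at 12 h, and 48 h differed from 12 h by -1.18 (limma, adjusted p = 2.05e-05), with levels of 0.81, 0.66 and 0.60 in the 48-h buds and 2.01, 2.01 and 1.60 in the 12-h buds. The acyl-CoA-binding protein CUST_1554, which carries acyl-CoA in the cell, had 0.53 at 12 h and -0.49 at 3 h, and 12 h differed from 3 h by 1.02 (limma, adjusted p = 2.22e-05), with no overlap between the arrays. The sterol desaturase CUST_5919 had 0.44 at 12 h and -0.29 at 3 h, and 12 h differed from 3 h by 0.73 (limma, adjusted p = 4.11e-05). Its 3 h change from 0 h passed the test only narrowly (limma, adjusted p = 0.0498).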

How the results depend on the processing

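Other scalings, background corrections, filters, blocks and models were run, 1 background setting (spot minus local background plus 50 units) was chosen after seeing the data, and each array was left out in turn. For single list probes, the alternatives covered the called differences outside the oleosin 2 list and those of CUST_38273. No such called difference changed its direction, while those of CUST_38273, which passed nowhere, changed sign in 1 to 3 alternatives at each time point. Differences that passed the test without reaching 2-fold were not followed, and the 9 other oleosin 2 probes were followed as counts. For CUST_21228, normexp gave -1.49, 0.55, 1.56 and 0.19 at 3, 12, 24 and 48 h. Its fitted background SD was 577 units on 0 h replicate 3 and 175 units on 24 h replicate 1, against 0.00066 to 4.18 on the others, and the corrected oleosin 2 intensity was 1100 units on that 0 h array, against 79.0 and 88.2 on the other 2. Under normexp none of the 9 other oleosin 2 probes was called at 12, 24 or 48 h, none of the seed maturation probes at 3 or 48 h (1 each otherwise), and SSI2 at 48 h was 0.93. Spot minus background plus 50 units gave CUST_21228 2.12, 2.87 and 1.73 at 12, 24 and 48 h, with 4 of 9 oleosin 2 probes called at 48 h. Slide as a fixed block gave CUST_21228 5.36 and 6.34 at 12 and 24 h and SSI2 -1.06 at 24 h, and left 4 and 0 of the 9 probes called. A fixed block for scan day gave CUST_21228 5.38, 6.38 and 5.05 and left 5, 3 and 0 of 9. The share of all tested probes called under these settings is not given here, so nothing is read from the oleosin 2 counts.

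Of the 31 lipid probes, 4 were called at 12 h, with 2 under no scaling, 1 with slide as a block and 2 with scan day. At 3 h the 1 call, FAD3 CUST_38272, became 0 under quantile normalization, the median shift, the authors' log2 table, normexp, no filter on dim probes, slide as a fixed or random block, scan day, no moderation and the 6 arrays alone. Replicate number as a block left the member differences in place (4.51 at 12 h for CUST_21228, 1.90 at 48 h for CUST_33425), and under this pairing the lipid count at 3 h was 0 and no other count of these lists moved by more than 1.5 times. Leaving out single arrays moved SSI2 at 12 h between -0.50 and 0.94, the lipid count at 12 h between 2 and 5 and at 3 h between 0 and 1, and the oleosin 2 count at 48 h between 7 and 9. Of 568 values of single list probes under the alternatives, 523 stayed on their side of the threshold and 45 lost it. The slide block gives no value at 48 h, and the filter for all 15 arrays none for oleosin 2. Other causes were not tested. Depth does not apply to arrays, and the 0 h oleosin 2 signal, within background, limits its fold to a bound.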
